A study of Mus musculus with 6 samples.

Results

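Matricellular and adhesive glycoproteins are secreted proteins that lie between cells and the fibers of the extracellular matrix, and 9 of their genes were followed here among the 34745 rows of the deposited expression table. The members were taken by gene symbol, as a fixed list, and all 9 were found: the thrombospondins Thbs1, Thbs2 and Thbs3, tenascin-C (Tnc), osteopontin (Spp1), osteonectin (Sparc), periostin (Postn), fibronectin (Fn1) and vitronectin (Vtn). RNA was sequenced from wild-type primary mouse renal fibroblasts, which are matrix-producing cells grown from digested kidney, to ask how Th17 cells, the helper T cells that make interleukin-17, alter their transcripts. There were 3 libraries of fibroblasts with no treatment and 3 libraries of such cells cocultured with Th17 cells. The fibroblasts attached to the plate for 6 h, and the Th17 cells were then placed for 24 h in an insert with 0.4 μm pores, so that medium was shared without direct contact across the membrane, and the cells under the insert were collected. The Th17 cells had been induced from spleen CD4+ T cells in a medium with interleukin-1β, interleukin-6, interleukin-23 and an antibody to interferon-γ. The study's mice were Balb/c, but the fibroblast donors are not explicitly tied to that strain. The number of animals, the time in culture of the lone fibroblasts, and whether the libraries of a group were separate cultures were not stated, so the errors and p-values measure only how far these libraries differ, which may be technical.

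Matricellular proteins such as thrombospondins, tenascin-C, osteopontin, osteonectin and periostin bind matrix fibers, growth factors and cell-surface receptors, and act more on cell behavior than as structural parts of the matrix. Fibronectin and vitronectin are adhesive glycoproteins that cells grip through integrins, and fibronectin also forms fibrils on which collagen is laid down. In the kidney, many of these proteins are sparse in healthy interstitium and accumulate in injured or scarred tissue, where fibroblasts are one of their sources.

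The total fragment count was between 12050529 and 13209581 per library, so both groups were sequenced to similar depth, and a floor of 3 counts corresponded to 0.223 to 0.254 CPM (fragment counts brought to one library size with TMM factors). Cocultured replicate 3 stood somewhat apart from its group, with a chi-square per gene of 14.0 and 15.2 against the other cocultured libraries, compared with 6.38 to 8.49 for the remaining pairs within a group and at least 79.9 between groups. All 12 fibroblast markers were detected. Each of the 12 macrophage and 8 mural markers also had counts in some library, so detection alone does not settle the label. The fibroblast markers summed to 37370 to 39260 CPM alone and 15920 to 17650 CPM in coculture, where 10 of them were lower and Dcn was higher. Most of this sum came from Col1a1, Col1a2 and Col3a1 (log2 fold changes −1.275, −1.43 and −2.18). Pdgfra, Pdgfrb, Vim and Thy1 were lower by less (−0.35, −0.34, −0.52 and −0.53), and S100a4 did not pass the threshold. The part of these shifts in the members' levels was not tested. T cell transcripts were scarce, with 10 of 14 markers at 3 counts or fewer in every library and a summed level of 7.14 to 9.32 CPM alone and 5.03 to 6.02 CPM in coculture, most of it from Lck, which was lower in coculture, and Trac, and with Il17a, Il17f, Cd3d, Cd2 and Cd5 at 0 counts in all libraries. Every library held both Xist, at 2215 to 3149 counts, and Y-linked transcripts, at 1754 to 1918 counts for 4 genes together. In bulk RNA, fewer cells of a type and less RNA per cell cannot be told apart.

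The members did not move as a block. Of the 9, 8 had enough counts to test, and coculture was associated with higher expression of Thbs1, Tnc and Spp1 and with lower expression of Thbs2, Sparc and Fn1, at an adjusted p below 0.05 (edgeR, quasi-likelihood test, p adjusted over 13088 genes by Benjamini-Hochberg). The increases were between 1.37-fold and 1.5-fold, whereas the decreases ranged from 1.34-fold for Fn1 through 2.0-fold for Sparc to 4.43-fold for Thbs2. Thbs3 and Postn did not pass the threshold, and Vtn was at 0 counts in all 6 libraries. Over all genes tested, 17.1% were higher and 20% were lower by the same rule, so the 3 members in each direction are to be read against a table in which calls are frequent. With a fold change above 2 as a further requirement, no member was higher and 2 members, Thbs2 and Sparc, were lower, where the shares over all genes tested were 3.87% and 7.78%. The groups did not overlap in CPM for the 6 members called, and this was so for 50.4% of all genes tested. The median log2 fold change of the 8 tested members was −0.15, compared with 0.00 over all genes tested.

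**Figure D1:**
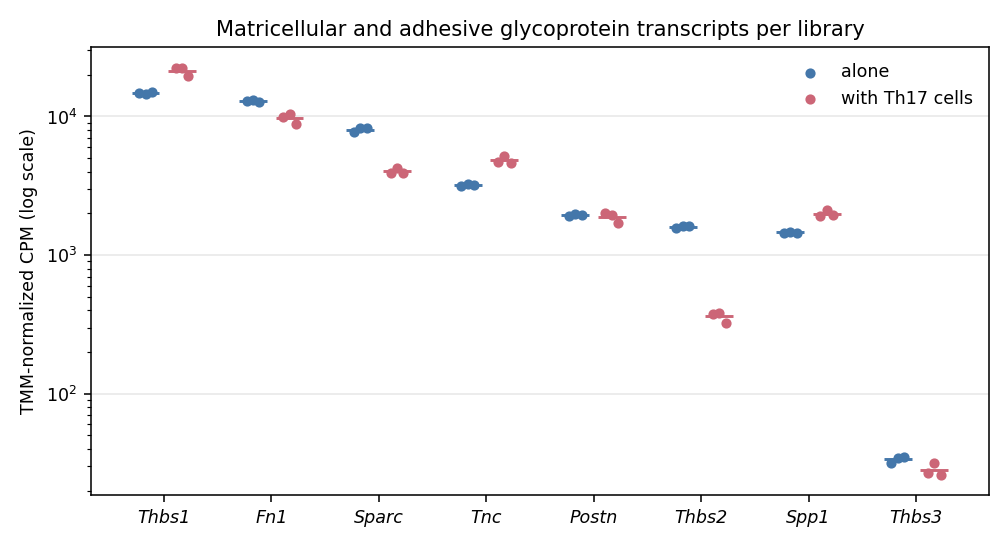
TMM-normalized CPM on a log axis for the 8 detected members, with 1 point for each of the 3 lone and 3 cocultured libraries and a line at the group mean. The points of the groups are apart for Thbs1, Fn1, Sparc, Tnc, Thbs2 and Spp1 and overlap for Postn and Thbs3, and Thbs2 shows the widest gap, from 1606 to 362 CPM.

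The 250 bases before the annotated start are shown for the members that rose and have an entry, Tnc and Spp1, and for the pair with the largest decreases, Thbs2 and Sparc, so that genes that moved in opposite directions can be compared. They are RefSeq sequences of mouse build GRCm38.p6, written 5′ to 3′ on the strand of the gene, and capitals mark TATAAA, the TATA box letters, or its reverse complement.
Tnc, chr4:64047016-64047265, minus strand: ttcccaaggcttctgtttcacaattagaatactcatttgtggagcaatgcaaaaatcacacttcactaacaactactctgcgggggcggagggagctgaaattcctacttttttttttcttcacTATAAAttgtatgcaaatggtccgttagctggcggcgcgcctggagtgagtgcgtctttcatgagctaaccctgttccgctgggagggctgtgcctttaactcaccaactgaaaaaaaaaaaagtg
Spp1, chr5:104434861-104435110, plus strand: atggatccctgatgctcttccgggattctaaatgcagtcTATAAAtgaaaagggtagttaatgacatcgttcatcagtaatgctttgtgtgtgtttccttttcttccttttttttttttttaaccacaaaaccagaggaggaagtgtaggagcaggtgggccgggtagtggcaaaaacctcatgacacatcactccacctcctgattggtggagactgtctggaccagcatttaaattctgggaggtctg
Thbs2, chr17:14694263-14694512, minus strand: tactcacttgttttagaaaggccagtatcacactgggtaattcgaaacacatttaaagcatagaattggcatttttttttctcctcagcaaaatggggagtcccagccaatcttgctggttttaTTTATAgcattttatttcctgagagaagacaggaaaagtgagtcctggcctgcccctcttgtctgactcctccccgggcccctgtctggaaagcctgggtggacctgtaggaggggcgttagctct
Sparc, chr11:55420081-55420330, minus strand: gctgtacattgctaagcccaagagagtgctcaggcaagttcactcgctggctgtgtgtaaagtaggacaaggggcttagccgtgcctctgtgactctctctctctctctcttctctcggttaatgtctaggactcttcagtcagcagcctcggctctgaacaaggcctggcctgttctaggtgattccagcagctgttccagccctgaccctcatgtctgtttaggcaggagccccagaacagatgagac

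On either strand, the TATA box letters lay at −126 to −121 from the start in Tnc, at −211 to −206 in Spp1 and at −126 to −121 in Thbs2, in the last case on the opposite strand, while the Sparc window held none. These letters occur in 12.4% of 32851 promoter windows of the same length. Neither GGAATG, the core letters bound by TEAD factors, nor TGANTCA, the AP-1 site, was found in these 4 windows, and they occur in 12.6% and 6.75% of all windows. Tnc, Spp1 and Postn had 2 windows each, of which only that nearest the deposited start was searched. Of the 9 members, 7 had an entry, and the entries of Thbs1 and Fn1 were missing. Among the others, Postn had TATAAA at −26 to −21, Thbs3 held none of the 3 motifs, and Vtn held GGAATG at −234 to −229 beside 2 overlapping matches to TATAAA. Such letters were thus found in Tnc and Spp1, which rose, and in Thbs2, which fell.

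Thbs1 encodes thrombospondin-1, a large secreted glycoprotein that can release TGF-β from its latent complex and restrains the growth of vessels. The gene (ENSMUSG00000040152, chr2:118111876-118127133, plus strand, protein-coding) had 190702, 184970 and 176786 counts in fibroblasts alone and 300197, 286107 and 255471 counts with Th17 cells. All cocultured libraries were above all lone libraries, and a single gene held 1.43% to 1.47% of all fragments alone and 2.0% to 2.28% in coculture. Expression rose from 14780 ± 168 to 21410 ± 1712 CPM (SD, n = 3 each), a log2 fold change of 0.53 (SE 0.063, 95% interval 0.39 to 0.68, edgeR adjusted p = 0.000182). The rise was thus 1.45-fold on a transcript that was already among the most abundant in these cells.

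Thbs2 encodes thrombospondin-2, the closest relative of thrombospondin-1, which binds many of the same cell-surface proteins and takes part in the assembly of collagen fibrils. The gene (ENSMUSG00000023885, chr17:14665500-14694262, minus strand, protein-coding) had 20225, 20631 and 19139 counts alone and 5094, 4875 and 4280 counts with Th17 cells. Every cocultured library was far below every lone library. Expression decreased from 1606 ± 31.9 to 362 ± 32.0 CPM (SD, n = 3 each), which is 4.43-fold, with a log2 fold change of −2.15 (SE 0.073, 95% interval −2.31 to −1.98, edgeR adjusted p = 7.61e-08). Of all tested log2 fold changes, 2.60% were lower.

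These closely related genes therefore moved in opposite directions in the scaled counts. Their ratio within each library, which does not depend on how libraries are scaled, gives their change relative to each other only. Per library there were 9.43, 8.97 and 9.24 counts of Thbs1 for each count of Thbs2 in fibroblasts alone, and 58.9, 58.7 and 59.7 in coculture. The ratio varied little within a group and was 6.42-fold higher with Th17 cells, a difference of 2.68 on the log2 scale (group SDs 0.037 and 0.013). The exact two-sided permutation test over libraries gave p = 0.1, the smallest value that 3 libraries against 3 allow, and adjustment over the 3 ratios examined left it at 0.1. Since neither gene overlapped between the groups and they moved in opposite directions, no other value was possible. The test thus adds nothing to the calls of both genes.

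Thbs3 encodes a thrombospondin of the other structural subgroup, which forms pentamers rather than trimers. The gene (ENSMUSG00000028047, chr3:89215180-89226837, plus strand, protein-coding) had 405, 432 and 416 counts alone and 360, 404 and 341 counts in coculture, or 33.6 ± 1.93 and 28.2 ± 3.13 CPM (SD, n = 3 each). Cocultured replicate 2 lay within the lone range, and the log2 fold change of −0.25 (SE 0.10, 95% interval −0.49 to −0.02) had an edgeR adjusted p of 0.0824. Without cocultured replicate 2 it was −0.35 with an edgeR adjusted p of 0.0272, so whether Thbs3 passes the threshold rests on that library. Thbs3 shares 318 exon bases with Mtx1 on the opposite strand, which had 247 to 302 counts, and since the sources do not say whether counting was stranded, its counts are uncertain. The remaining thrombospondins, Thbs4 and Comp, were at 3 counts or fewer in every library.

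**Figure D2:**
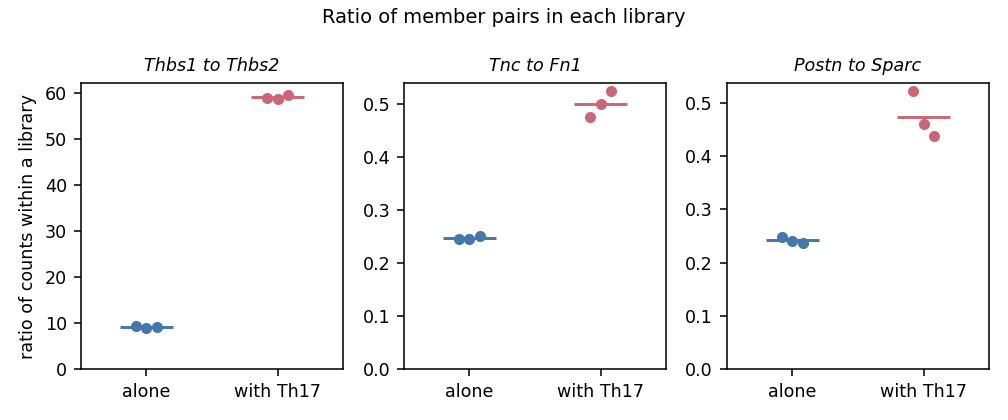
Ratio of counts for Thbs1 to Thbs2, Tnc to Fn1 and Postn to Sparc within each library, on linear axes from 0, with 1 point per library and a line at the group mean (3 libraries alone, 3 with Th17 cells). In each pair all cocultured libraries are above all lone libraries, from about 9 to about 59 for Thbs1 to Thbs2.

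Tnc encodes tenascin-C, a six-armed glycoprotein that is made during wound repair and reduces the grip of cells on fibronectin. The gene (ENSMUSG00000028364, chr4:63959785-64047015, minus strand, protein-coding) had 40826, 41255 and 37949 counts alone and 63102, 65687 and 60855 counts in coculture. Every cocultured library was above every lone library. Expression rose from 3212 ± 45.4 to 4827 ± 290 CPM (SD, n = 3 each), 1.5-fold higher and the largest increase among the members, with a log2 fold change of 0.59 (SE 0.057, 95% interval 0.46 to 0.72, edgeR adjusted p = 4.77e-05). The antisense transcript 8030451A03Rik, which overlaps it, had 1 to 15 counts per library.

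Fn1, the gene of fibronectin itself (ENSMUSG00000026193, chr1:71585520-71653200, minus strand, protein-coding), moved the other way. It had 166752, 167770 and 151092 counts alone and 132621, 131707 and 115928 counts in coculture, with no overlap between the groups. Expression decreased from 12990 ± 243 to 9674 ± 780 CPM (SD, n = 3 each), or 1.34-fold, with a log2 fold change of −0.43 (SE 0.064, 95% interval −0.57 to −0.28, edgeR adjusted p = 0.000797). Within libraries, the ratio of Tnc to Fn1 counts was 0.245, 0.246 and 0.251 alone and 0.476, 0.499 and 0.525 in coculture. The ratio was 2.02-fold higher with Th17 cells (exact two-sided permutation p = 0.1, the smallest possible, also after adjustment). As for the thrombospondins, the separate groups and opposite directions of both genes fixed this p-value beforehand.

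Spp1 encodes osteopontin, an acidic phosphoprotein that binds integrins and CD44 and is made by injured tubules, macrophages and fibroblasts. The gene (ENSMUSG00000029304, chr5:104435118-104441050, plus strand, protein-coding) had 18678, 18586 and 17199 counts alone and 25819, 26967 and 25540 counts in coculture. The lone libraries were close together, with a coefficient of variation of 0.668% in CPM, and all lay below the cocultured libraries. Expression rose from 1457 ± 9.73 to 1993 ± 109 CPM (SD, n = 3 each), 1.37-fold, with a log2 fold change of 0.45 (SE 0.055, 95% interval 0.33 to 0.58, edgeR adjusted p = 0.000222). Marker sums of other cells known to make osteopontin were lower in coculture: 12 macrophage markers summed to 58.7 to 61.9 CPM alone and 19.9 to 21.2 CPM in coculture, where 5 of 6 tested were lower and Adgre1 and Ptprc were at 0 counts, and 12 epithelial markers summed to 22.9 to 24.9 CPM and 8.85 to 10.1 CPM, with 2 of 5 tested lower and Umod and Aqp2 at 0 throughout. The largest part of the macrophage sum came from Lyz2 in the lone libraries, with 358, 337 and 337 counts there and 49, 44 and 38 in coculture. In the cocultured libraries it came from Cd14, which did not pass the threshold (151, 140 and 127 counts alone, 129, 140 and 170 in coculture). Most of the epithelial sum in the lone libraries came from Krt19, with 198, 171 and 203 counts there and 33, 39 and 25 in coculture. Aqp1, with 41, 38 and 32 counts alone and 53, 58 and 56 in coculture, did not pass the threshold, nor did Krt18 and Slc12a1. The part of macrophages and epithelial cells in the level of Spp1, and that of macrophages in Fn1 and Thbs1, was not tested. Spp1 overlaps Gm42793 on the same strand over 309 exon bases, and that gene had 40 to 66 counts per library.

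Sparc encodes osteonectin, a collagen-binding protein that takes part in the processing of procollagen and reduces cell spreading. The gene (ENSMUSG00000018593, chr11:55394500-55420080, minus strand, protein-coding) had 99748, 103802 and 96936 counts alone and 52162, 54270 and 51276 counts in coculture. The groups were far apart relative to their spread. Expression fell from 8045 ± 264 to 4014 ± 216 CPM (SD, n = 3 each), a log2 fold change of −1.003 (SE 0.057, 95% interval −1.13 to −0.87, edgeR adjusted p = 1.46e-06). At 2.0-fold, Sparc sat on the fold change limit of 2, and leaving out single libraries put it on the other side. Without cocultured replicate 1 or 3, or lone replicate 2 or 3, only Thbs2 remained past the limit, with the log2 fold change of Sparc between −0.99 and −0.98.

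Postn encodes periostin, which binds collagen and supports its cross-linking, and which is used as a marker of matrix-producing fibroblasts. The gene (ENSMUSG00000027750, chr3:54361109-54391037, plus strand, protein-coding) had 24768, 24901 and 23050 counts alone and 27280, 24940 and 22418 counts in coculture, and 1946 ± 22.6 and 1897 ± 170 CPM (SD, n = 3 each). The cocultured libraries lay on both sides of the lone ones. The log2 fold change was −0.04 (95% interval −0.19 to 0.12, SE 0.069, edgeR adjusted p = 0.715), and its sign turned to 0.04 without cocultured replicate 3 and to 0.03 when only library size was used for scaling. The ratio of Postn to Sparc counts was 0.248, 0.240 and 0.238 alone and 0.523, 0.460 and 0.437 in coculture. It was 1.95-fold higher with Th17 cells (exact two-sided permutation p = 0.1, the smallest possible, also after adjustment). The ratio restates the 2.0-fold decrease of Sparc beside a Postn level that did not pass the threshold.

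Vtn encodes vitronectin, an adhesive protein of plasma that is made mainly by the liver. The gene (ENSMUSG00000017344, chr11:78499091-78502324, plus strand, protein-coding) had no count in any library, which allows at most the 0.223 to 0.254 CPM that 3 counts are worth here. Hepatocyte markers were near absence as well, with Serpina1a and Ttr at 0 and the summed level of 4 genes at most 0.169 CPM. Mural cells are another known source of vitronectin, and 8 markers listed for them summed to 1842 to 1933 CPM alone and 715 to 846 CPM in coculture. Des gave most of this sum, while Kcnj8 had 0 to 4 counts per library and Abcc9 had 0 to 6. Rgs5 had 27, 17 and 24 counts alone and 5, 7 and 1 in coculture. Whether the transcripts of these 8 markers came from mural cells was not tested. Of these markers, 5 of 6 tested were lower with Th17 cells, and their part in the levels of Tnc and Postn, which mural cells also make, was not tested. Endothelial markers, of which Tie1 and Emcn were at 0, summed to 240 to 261 CPM alone and 349 to 398 CPM in coculture. Most of this sum came from Flt1 and Eng, while Pecam1 had 8 to 20 counts per library and Cdh5 had 0 to 8. Flt1 was higher (1383 to 1533 counts alone, 3513 to 4067 in coculture). Of 4 tested, Flt1 was the only marker called higher, and 2 were lower, Eng and Kdr, the latter from 65, 74 and 68 to 2, 1 and 2 counts. Their part in Thbs1, Sparc and Fn1 was likewise not tested.

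**Figure D3:**
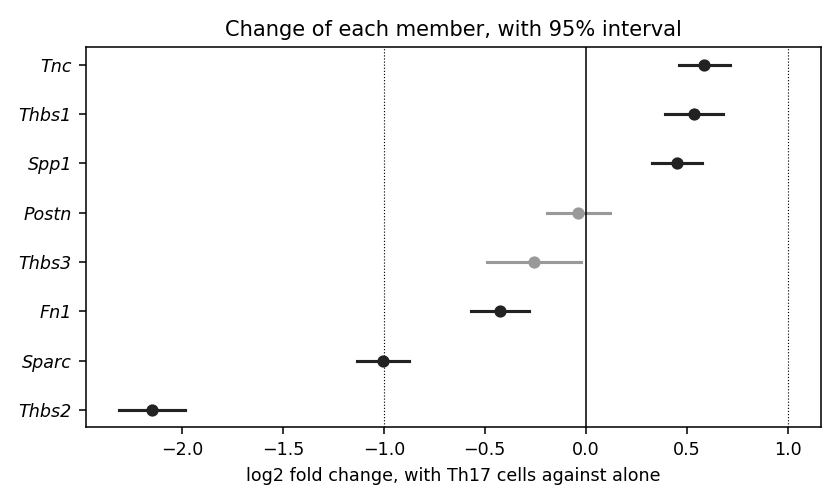
Log2 fold change of each tested member, cocultured against alone, with its 95% interval from edgeR (3 libraries per group). Black marks members with an adjusted p below 0.05 and gray those without, and dotted lines mark a 2-fold change. Thbs2 at −2.15 lies apart from the others, Sparc lies on the dotted line, and the increases of Spp1, Thbs1 and Tnc lie between 0.45 and 0.59.

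Levels of different genes can be compared only per length, and here CPM were divided by the kilobases of annotated exon. On that scale the order in fibroblasts alone was Thbs1 at 2435 ± 27.6, Sparc at 2124 ± 69.6, Fn1 at 1112 ± 20.8, Spp1 at 884 ± 5.90, Tnc at 413 ± 5.84, Thbs2 at 229 ± 4.55, Postn at 224 ± 2.59 and Thbs3 at 6.96 ± 0.400 CPM per kb (SD, n = 3). Only the neighbors Thbs2 and Postn overlapped between libraries. In coculture the order became Thbs1 at 3525 ± 282, Spp1 at 1210 ± 65.9, Sparc at 1060 ± 57.0, Fn1 at 828 ± 66.8, Tnc at 621 ± 37.3, Postn at 218 ± 19.5, Thbs2 at 51.8 ± 4.57 and Thbs3 at 5.84 ± 0.650 CPM per kb (SD, n = 3), with no overlap between neighbors. On this scale Thbs1 was first in both groups, Sparc went from second to a place behind Spp1, and Thbs2 went from beside Postn to well below it.

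Expressed as a share of the summed CPM per kb of the members, Thbs1 went from 32.8% ± 0.563 to 46.9% ± 1.36 (SD, n = 3 each). Sparc went from 28.6% ± 0.605 to 14.1% ± 0.618, and Thbs2 from 3.09% ± 0.026 to 0.688% ± 0.024. Spp1 and Tnc took larger shares in coculture, 16.1% and 8.26%, than alone, 11.9% and 5.56%, while Fn1 went from 15% to 11%. The members together held 4.26% to 4.34% of all fragments alone and 4.20% to 4.75% in coculture. Cocultured replicate 3 was below every lone library, and the other cocultured libraries were above every lone library. Coculture was thus accompanied by a different make-up of these transcripts, at a mean total of 4.31% of all fragments alone and 4.52% in coculture.

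**Figure D4:**
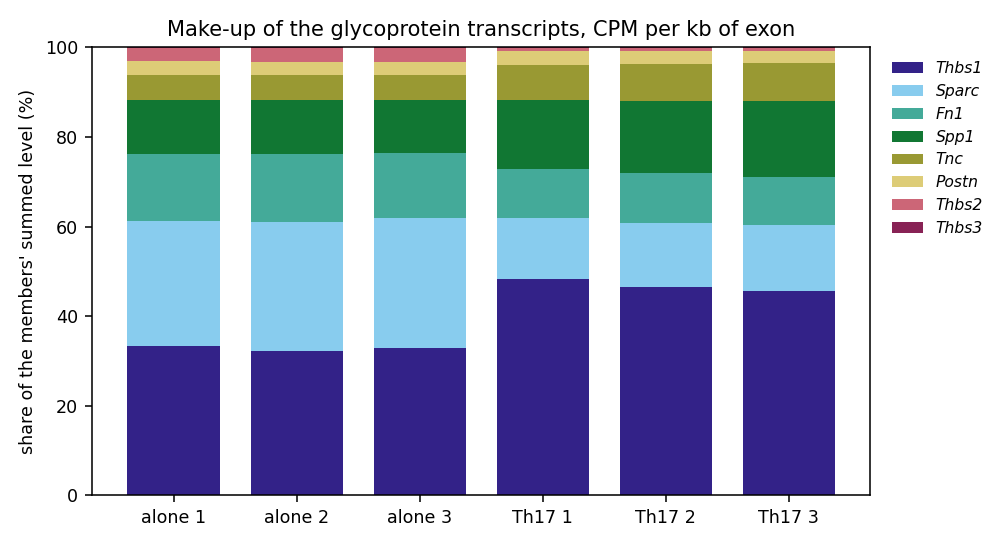
Share of each detected member in the summed level of the members, in CPM per kilobase of exon, as stacked bars that reach 100% for each of the 6 libraries. The Thbs1 share is about 33% in the lone libraries and about 47% in the cocultured libraries (Th17 1 to 3), and the Sparc share shrinks from 28.6% to 14.1%.

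The places of Spp1 and Sparc depend on the length used. In the deposited FPKM values Spp1 was at 265 ± 2.0 alone and 379 ± 18.6 in coculture (SD, n = 3 each), below Tnc at 396 ± 6.05 and 622 ± 33.6 FPKM, whereas per kilobase of merged exon it was above Tnc in both groups. The gene length that the FPKM values imply for Spp1 is 5372 bases, 3.26 times the 1648 bases of its merged annotated exons, and equals the sum of its distinct annotated exons with overlapping ones counted repeatedly. For Tnc both lengths are close, 7929 and 7772 bases. Thbs1 was first and Thbs3 last among the detected members on both scales. In FPKM, Sparc was second in both groups, at 1779 ± 62.6 and 928 ± 44.7 (SD, n = 3 each), and Tnc was below Fn1 alone and above it in coculture, where Fn1 was at 547 ± 40.8 FPKM. The fixed length used for a gene cancels in its change between groups. Whether the use of its transcripts differed between the groups, as in Fn1 with 17 annotated transcripts, was not examined.

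Relatives of the members were examined as a list of 35 further matricellular and matrix-associated glycoproteins, which included the remaining thrombospondins and tenascins, SPARC-like proteins, CCN proteins and fibulins. Of 23 with enough counts, 2 were higher and 15 were lower, where 17.1% and 20% of all genes tested were, and the median log2 fold change was −1.0, compared with 0.00 over all genes tested. The higher pair were Edil3, an integrin-binding protein of vessels, at 28, 32 and 34 counts alone and 140, 141 and 170 in coculture (log2 fold change 2.18), and Npnt, the α8-integrin ligand of the developing kidney, at 598, 524 and 483 counts and 1332, 1157 and 945 (1.02). The lowest were Smoc2, a calcium-binding relative of Sparc, from 617, 602 and 647 to 49, 51 and 45 counts (log2 fold change −3.76), Sparcl1, its closest relative, from 70, 51 and 61 to 8, 5 and 2 counts (−3.64), and Tnxb, which encodes tenascin-X, from 95, 105 and 125 to 19, 6 and 9 counts (−3.33). Sparc and its relatives Smoc2 and Sparcl1 were lower, but Smoc1, with 20, 27 and 24 counts alone and 25, 31 and 18 in coculture, did not pass the threshold (log2 fold change −0.01), and the tenascins Tnc and Tnxb moved in opposite directions. Ccn1 and Ccn2, secreted targets of TGF-β and mechanical signaling, had log2 fold changes of −0.09 and −0.05 and did not pass the threshold, whereas the other tested CCN genes, Ccn3, Ccn4 and Ccn5, were lower (−2.37, −1.10 and −2.32).

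Receptors and binding partners of the members made a list of 30 genes, of which 27 were tested. The median log2 fold change was −0.09, with 5 genes higher and 10 lower. Over all genes tested these calls made up 17.1% and 20%, and the share of receptors called higher is near that background. The higher genes with the largest changes were integrin subunits: Itga4, which binds fibronectin and osteopontin as part of α4 integrins, went from 35, 36 and 23 to 90, 76 and 65 counts (log2 fold change 1.22). Itgav, the αv chain, which pairs with several β chains to bind vitronectin, fibronectin, osteopontin and periostin, went from 2758, 2487 and 2397 to 7762, 6683 and 2727 counts (1.09), so cocultured replicate 3 lay close to the lone libraries. Itgb3, the β3 chain, went from 256, 290 and 250 to 373, 735 and 365 counts (0.82).

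Both of these calls were unstable. The edgeR adjusted p of Itgav was between 0.053 and 0.0727 without lone replicate 1, 2 or 3 or cocultured replicate 1 or 2, and that of Itgb3 was between 0.0691 and 0.108 without lone replicate 1, 2 or 3. Itgb5, the β5 partner of αv, was higher with smaller spread, from 4510, 4424 and 3955 to 7089, 7204 and 6378 counts (log2 fold change 0.61, 1.53-fold, edgeR adjusted p = 0.000116). Itga5, the α5 chain of the main fibronectin receptor, was lower (log2 fold change −0.45), as was Fn1.

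At the lower end, Itgb8, the β8 chain that with αv activates latent TGF-β, had 25, 32 and 23 counts alone and 2, 0 and 0 in coculture, at least 9.07-fold lower. Ptprz1, a phosphatase receptor bound by tenascin-C, went from 413, 376 and 346 to 31, 35 and 14 counts (log2 fold change −3.89), and Cd36, a receptor of thrombospondin-1, from 36, 38 and 17 to 6, 0 and 3 counts (−3.35, and −4.27 without cocultured replicate 1). Cd47, the other well-known thrombospondin-1 receptor, had a log2 fold change of −0.07 with an edgeR adjusted p of 0.585, and without cocultured replicate 3 it was called at −0.17 (edgeR adjusted p = 0.0241). The osteopontin receptor Cd44 had 7363 to 9968 counts alone and 7814 to 9960 in coculture, with overlapping groups.

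Because thrombospondin-1, αv integrins and fibronectin all bear on latent TGF-β, 16 genes of that axis were examined, and all were tested. The ligands Tgfb2 and Tgfb3 were lower, from 576, 520 and 488 to 162, 177 and 121 counts (log2 fold change −1.85) and from 1382, 1395 and 1273 to 708, 613 and 531 counts (−1.20), whereas Tgfb1 had a log2 fold change of 0.05 and did not pass the threshold. Ltbp4, a latent TGF-β binding protein that anchors the complex in the matrix, was also lower (−1.07). In all, 8 genes of the axis were lower and 3 were higher, with a median log2 fold change of −0.20. The share called higher is again near the 17.1% of all genes tested, of which 20% were lower. The higher genes were Smad7, an inhibitor of TGF-β signaling, from 859, 879 and 789 to 1679, 1361 and 1179 counts (0.66), Skil, another inhibitor (0.27), and the signal transducer Smad2 (0.24). The calls of Skil and Smad2 were lost without lone replicate 1, 2 or 3 or cocultured replicate 1 or 3, with edgeR adjusted p between 0.0566 and 0.140.

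**Figure D5:**
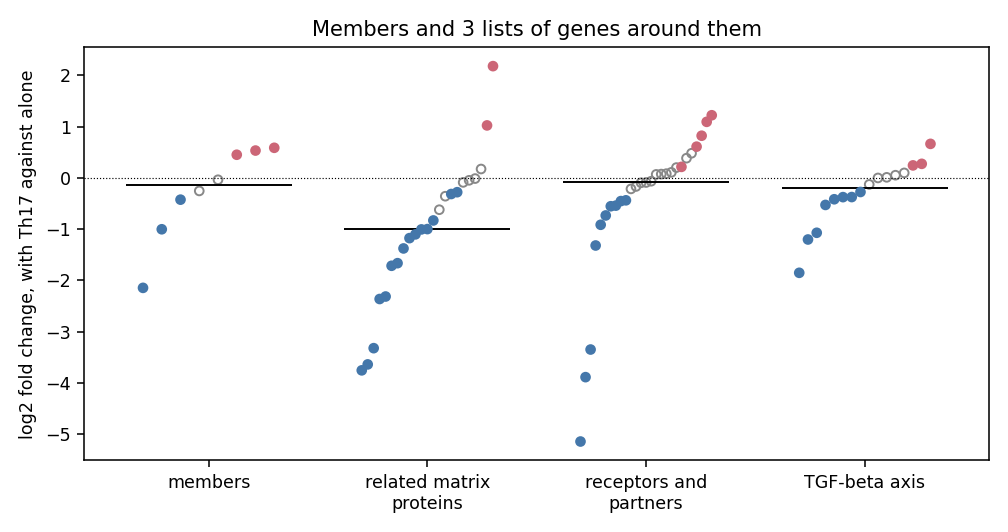
Log2 fold change, cocultured against alone, of the 8 tested members, 23 related matrix proteins, 27 receptors and partners and 16 genes of the TGF-β axis, in rising order within each list. Filled red and blue points are higher and lower at an adjusted p below 0.05, open points did not pass, and lines mark medians, which are −0.15, −1.0, −0.09 and −0.20. The lowest receptor point is Itgb8, whose fitted value depends on the prior count because its cocultured libraries hold 0 to 2 counts.

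The transcripts whose pattern over the 6 libraries was most like that of a member were found by the root mean square difference in log2 CPM after each gene's mean had been subtracted. For Tnc, the member with the highest log2 fold change, they were Npr2 (0.034), Furin (0.035) and Klc3 (0.037). For Thbs2, the member with the lowest, they included Col3a1 (0.040), which encodes type III collagen, and Islr (0.060). Col3a1 went from 4364 to 961 CPM and had a log2 fold change of −2.18, near the −2.15 of Thbs2, a nearness that follows from the selection by pattern.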

How the data were processed

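The 6 libraries were made with a VAHTS kit and read on a NovaSeq instrument. After a quality filter with Seqtk, the authors aligned reads with HISAT2 2.0.4 (build mm10, per the submitters' processing notes), counted fragments for each gene with StringTie 1.3.3b and deposited raw counts and FPKM values for each gene and library. The annotation, the use of strand and the treatment of fragments that match several genes were not given in the sources used here. In the deposited FPKM, the gene length implied by the FPKM, the count and the library total was the same in all libraries, within 1%, for 8910 genes with at least 100 counts in every library, so these values carry no TMM factor. Positions are those of the deposited table, on mm10 (GRCm38).

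Groups were taken from the sample titles. The counts were analyzed in R 4.3.3 with edgeR 4.0.16 (filterByExpr with its defaults, minimum count 10; TMM; glmQLFit and glmQLFTest) over the whole table, with Benjamini-Hochberg adjustment over the 13088 genes tested. A gene was called at an adjusted p below 0.05, and a second rule, that of the study's methods, added a fold change above 2. CPM use TMM library sizes, and SE (log2 fold change over the root of F) and 95% intervals come from the same fit. The biological coefficient of variation was 11.6%. Floors cover counting error only. Ratios were formed from counts plus 0.5 and tested by an exact two-sided permutation test over libraries. Exon lengths are merged exons of GENCODE M21, in which 34344 identifiers occur.

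Members and lists were chosen with earlier results of these data known. All 9 members were named, and from each list the called genes with the 3 highest and the 3 lowest log2 fold changes; Itgb5, Itga5, Cd47, Cd44, Ccn1 to Ccn5, Smoc1, Tgfb1, Thbs4 and Comp were added after their values had been seen. For the member with the highest and the one with the lowest log2 fold change, the 3 most similar genes were named, except that 1 is not reported here.

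Alternatives were DESeq2 1.42.0, relative log expression or upper quartile factors, library size only, at least 10 counts in every library, no count filter, a replicate block, limma 3.58.1 on log2(FPKM + 1) and log2(FPKM + 0.1), glmTreat, and leaving out each library. Deviations of libraries with the same replicate number correlated at −0.026 to 0.016, so the numbers were not taken to pair libraries. On simulated counts for 13088 genes with 200 changed, edgeR recovered 100% of the changes of 1 and of 2 on the log2 scale, with 8 unchanged genes called. The simulation used 1 dispersion for all genes, changed far fewer genes than were called in the data, and changed no gene with few counts. It held no change smaller than 1 on the log2 scale. Recovery at the size seen in Thbs1, Tnc, Spp1 and Fn1 was thus not tested. Python 3.11.15, pandas 2.3.3, SciPy 1.17.1 and matplotlib 3.10.9 were used.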

Additional observations from a re-analysis of the deposited data

How the results depend on the processing

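The calls of Thbs1, Thbs2, Tnc, Spp1, Sparc and Fn1 held, in the same direction, under all 15 alternatives, with log2 fold changes of 0.50 to 0.60, −2.19 to −2.07, 0.54 to 0.65, 0.41 to 0.52, −1.05 to −0.94 and −0.47 to −0.36. With at least 10 counts in every library, library size only, upper quartile factors, limma on log2(FPKM + 1) or log2(FPKM + 0.1), or glmTreat, 1 member and not 2 was more than 2-fold lower, since Sparc sits at that limit (1 to 2 when single libraries were left out). Postn, never called, turned in sign to 0.0267 with library size only and to 0.0232 and 0.023 with limma at the smaller and the larger pseudocount, and ranged from −0.0855 to 0.0369 when single libraries were left out. Thbs3 ranged from −0.35 to −0.20 when single libraries were left out, and passed the threshold without cocultured replicate 2 (−0.35). The median of the members was −0.0638 with limma on log2(FPKM + 1). Receptors called higher were 3 to 5, and TGF-β axis genes called higher 1 to 3, when single libraries were left out, and DESeq2 called 1 of the latter. The log2 ratio of summed macrophage markers was −1.55, and −1.48 with library size only, by which the median of all genes moved from 0.004 to 0.067. The replicate block left the member counts at 3 higher and 3 lower, with Sparc at −1.004, and changed no call of a member, but the same-numbered libraries share only a number. The ratio of Thbs1 to Thbs2 differed by 2.66 to 2.70 on the log2 scale when single libraries were left out. The cause of these shifts was not tested. Depth limits only Vtn and the low-count list genes, and 3 libraries per group keep the exact test at or above 0.1.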

Other observations

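The deposited FPKM values use a gene length that differs from the merged exon length. Over 8903 genes with a match in GENCODE M21, the length that FPKM and counts imply was within 1% of the sum of all distinct annotated exons, with overlapping exons counted repeatedly, for 67.2%, and within 1% of the merged exon length for 6.97%, and the median ratio of implied to merged length was 1.25. Among the detected members the implied length equaled that sum for Thbs1, Thbs3, Tnc, Spp1, Postn and Fn1 and did not for Thbs2 and Sparc. The ratio to the merged length was 3.26 for Spp1, 1.84 for Thbs3, 1.55 for Fn1, 1.39 for Postn, 1.17 for Sparc, 1.07 for Thbs1, 1.02 for Tnc and 0.846 for Thbs2, so FPKM order members differently from CPM per kilobase of merged exon.

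The spread between libraries differed between the groups. Among the 8 detected members the coefficient of variation of CPM was 0.668% to 5.75% alone and 5.38% to 11.1% in coculture, and in each member it was larger in coculture. The share of all genes for which this holds was not counted. Over at least 12846 genes per pair, the chi-square per gene was also larger between cocultured libraries (8.49 to 15.2) than between lone ones (6.38 to 7.35). The wider spread was thus not limited to the members. In Thbs1, Thbs2, Thbs3, Tnc, Postn and Fn1, cocultured replicate 3 had the lowest CPM of its group.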
